A study of Mus musculus with 7 samples.

Results

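SWI/SNF, ARID and related chromatin remodeler genes were followed across mouse lung tumors and normal lung. Members were taken by gene symbol (Smarc, Arid, Chd, Ino80 and Actl6 genes, with Pbrm1, Brd7, Brd9, Phf10, Ss18 and the Dpf and Bcl7 genes), which matched 52 genes. Of these, choline dehydrogenase (Chdh) and the pseudogene Smarca5-ps were left out, so that 50 of 22447 genes remained. RNA sequencing had been done on 7 libraries, which were 3 tumors from EZH2-overexpressing mouse lung (OE tumors), 2 lungs labelled normal of mice with the same overexpression (OE normal lung) and 2 lungs of wild-type mice (WT lung). The tumors and the OE normal lungs share the overexpression, and the WT lungs do not carry it. The labels used here give no strain, age or treatment and name no promoter that drives EZH2. They describe culture of minced tumor nodules, without saying which RNA came from cultured cells, and do not say whether replicates were separate animals, so the p-values speak for the spread among these libraries alone.

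Chromatin remodelers use ATP to slide, evict or exchange nucleosomes. The SWI/SNF (BAF) complexes are built around 1 of 2 exchangeable ATPases, SMARCA4 (BRG1) or SMARCA2 (BRM), and a shared core, and take a canonical BAF, PBAF or non-canonical BAF form according to their ARID and bromodomain subunits. They open chromatin and oppose Polycomb, whose methyltransferase EZH2 marks histone H3 for silencing, and several of their genes are known tumor suppressors in lung cancer. ISWI, CHD and INO80 remodelers are separate ATPase families, and further ARID proteins bind DNA outside BAF.

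Among these genes the tumors were marked by more Brd7, a bromodomain subunit of PBAF, and less Smarca2, 1 of the 2 SWI/SNF ATPases. Brd7 averaged 103 ± 9.89 FPKM in OE tumors, 25.3 ± 1.54 FPKM in OE normal lungs and 25.9 ± 1.64 FPKM in WT lung, and Smarca2 averaged 19.5 ± 2.85, 53.5 ± 0.303 and 67.9 ± 4.95 FPKM (SD, n = 3, 2 and 2). FPKM is the authors' count of fragments scaled by transcript length and library size. The paralog Smarca4 was not called in either comparison of tumors with normal lung. The start regions of Brd7 and of both SWI/SNF ATPases are shown first because the results turn on these genes. Each line gives 250 bases before to 50 bases after the annotated start, read in the direction of the gene, from RefSeq on build GRCm38.p6, at chr8:88362123-88362422 (minus strand) for Brd7, chr19:26604910-26605209 (plus strand) for Smarca2 and chr9:21615919-21616218 (plus strand) for Smarca4. Capitals mark every match on either strand to the SP/KLF letters GGGCGG, the ETS letters CCGGAAG, the NRF1 letters GCGCATGC, the CRE letters TGACGTCA, the NFY letters CCAAT and the TATA box letters TATAAA, none of which overlap each other in these windows.
Brd7: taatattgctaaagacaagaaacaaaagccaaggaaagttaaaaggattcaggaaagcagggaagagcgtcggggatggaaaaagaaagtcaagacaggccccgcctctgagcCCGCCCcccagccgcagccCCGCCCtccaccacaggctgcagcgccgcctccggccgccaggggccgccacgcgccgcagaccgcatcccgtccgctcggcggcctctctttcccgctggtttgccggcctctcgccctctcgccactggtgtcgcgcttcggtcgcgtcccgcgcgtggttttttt
Smarca2: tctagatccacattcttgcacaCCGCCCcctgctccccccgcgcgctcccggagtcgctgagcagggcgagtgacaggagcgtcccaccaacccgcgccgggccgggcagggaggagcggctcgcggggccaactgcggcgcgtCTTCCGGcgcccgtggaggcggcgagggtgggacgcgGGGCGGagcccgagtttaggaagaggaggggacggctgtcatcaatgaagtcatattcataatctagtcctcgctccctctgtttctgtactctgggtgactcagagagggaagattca
Smarca4: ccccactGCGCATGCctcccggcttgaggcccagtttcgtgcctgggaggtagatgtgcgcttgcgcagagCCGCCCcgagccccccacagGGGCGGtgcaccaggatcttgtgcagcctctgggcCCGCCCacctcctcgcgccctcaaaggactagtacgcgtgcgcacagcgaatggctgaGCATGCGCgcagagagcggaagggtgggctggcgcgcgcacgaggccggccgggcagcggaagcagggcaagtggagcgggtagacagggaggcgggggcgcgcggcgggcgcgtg

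All 3 windows hold many CpG pairs, 31 for Brd7, 29 for Smarca2 and 33 for Smarca4. The median was 26 CpG over the 47 start regions found for 39 of the members, against 7 over all 32851 regions of the same length in the table. GGGCGG stood in 38 of the 47 member regions (80.9%) and in 35.7% of all regions. Smarca2 had the ETS letters and Smarca4 had the NRF1 letters at 2 places, and these letters are in 8.86% (ETS) and 2.71% (NRF1) of all regions. The CRE letters were in 0 of the 47 member regions and 1.79% of all regions, and the NFY letters in 16 of the 47 and 37.4% of all. TATAAA was found in 2 of the 47 member regions and in 13.6% of all regions, and in none of the 3 shown. The submitters' processing notes name mm9 as the build of the expression values, so these coordinates were used for sequence only.

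Before the comparisons, Ezh2 was read in each library as a check of the labels. It was at 8.48, 23.5 and 22.6 FPKM in OE tumors 1, 2 and 3, at 10.2 and 11.5 FPKM in OE normal lungs and at 3.72 and 2.58 FPKM in the WT lungs. Every OE library was above both WT libraries, and tumor 1 was below both OE normal lungs. Tumor 1 also stood apart from tumors 2 and 3 over all genes. On log2(FPKM + 1) it correlated with each of them at r = 0.940, against r = 0.978 between tumors 2 and 3, both over genes, which are no independent replicates. The X-inactivation RNA Xist was at 0.127 FPKM in tumor 1 and at 74.2 and 60.6 FPKM in tumors 2 and 3, and the Y-linked Eif2s3y at 30.7 FPKM in tumor 1 against 0.0327 and 0.0295 FPKM. In the normal lungs Xist was at 0.816 and 63.6 FPKM in OE normal 1 and 2 and at 0.131 and 0.346 FPKM in WT 1 and 2, and Eif2s3y was at 27.4, 0.0903, 29.8 and 29.8 FPKM in the same order, so sex is unbalanced across the groups and its part in the results was not tested. Read totals are not stated. From the steps between low values, tumor 1 had the lowest relative depth, with tumor 2 at 1.72 and tumor 3 at 1.27 times that of tumor 1 and the normal lungs at up to 1.87 times. Values were compared as log2(FPKM + 1), a scale that understates the change of low genes, with limma over the 14057 genes at 1 FPKM or more in at least 2 libraries. A gene was called at a Benjamini-Hochberg adjusted p under 0.05. Of the 50 members, 44 were tested, with values between 0.841 and 110 FPKM.

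**Figure D1:**
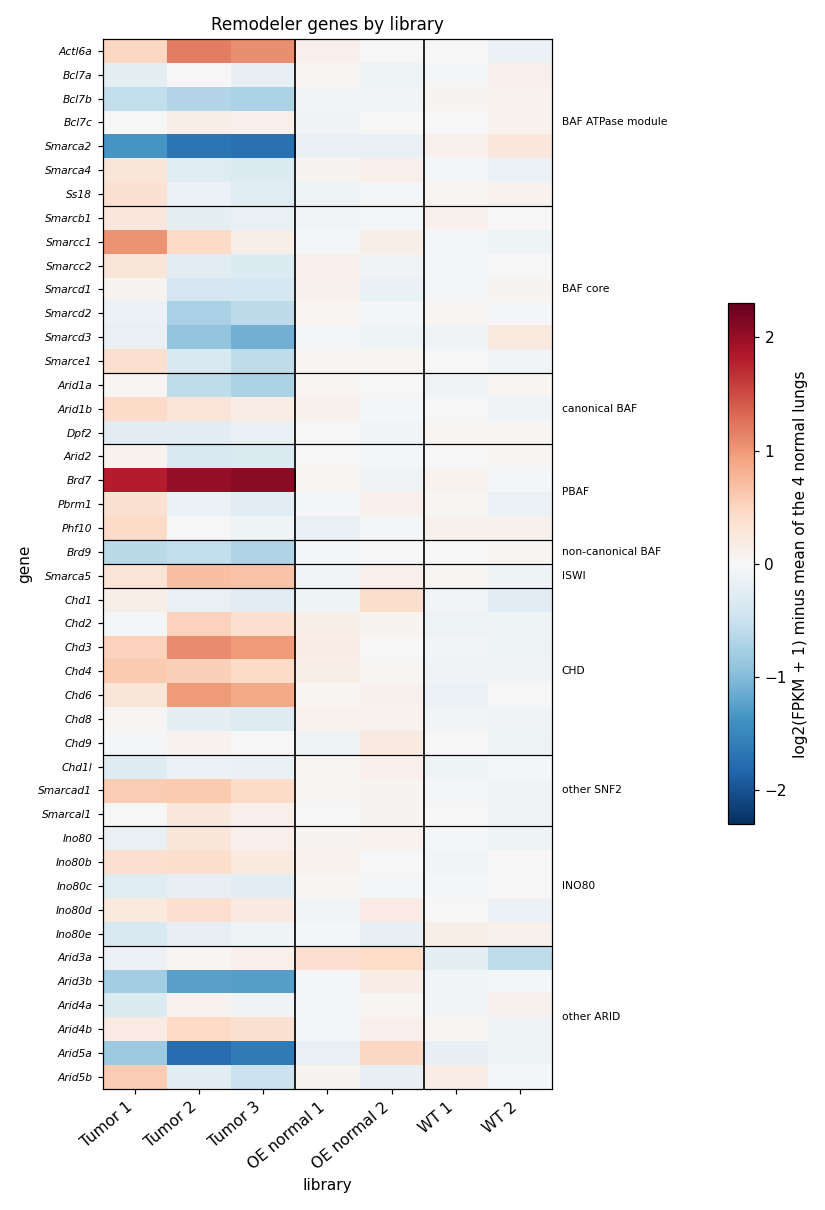
Heat map of the 44 tested members (rows, grouped by complex) in the 7 libraries (columns), colored by log2(FPKM + 1) minus the mean of the 4 normal lungs. Brd7 is high and Smarca2 low in all 3 tumors, and the BAF core genes are higher in tumor 1 than in tumors 2 and 3.

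The comparison of OE tumors with OE normal lung asks how remodeler expression differs between tumor and lung of 1 genotype. Of the 44 members tested, 6 rose in tumors (Brd7, Actl6a, Chd3, Chd4, Smarca5 and Smarcad1) and 5 fell (Smarca2, Arid3b, Arid5a, Bcl7b and Brd9). Over all genes tested 13.1% were called higher, 24.9% lower and 38.1% in either direction, against 25.0% of the members, and their median log2 difference was -0.08 against -0.11 for all genes. The comparison with WT lung, which uses the same tumors, called 8 members higher and 5 lower, with 15.0% and 23.2% of all genes called in these directions. Tumors lay above all 4 normal lungs for 12 members (27.3%, against 21.9% of all genes tested) and below all 4 for 10 (22.7%, against 30.0%). The 5 that fell were those named above, and Chd6 and Ino80b joined the 6 that rose. Between OE normal and WT lung none of the 44 members was called in limma, and neither was Ezh2.

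Of the members that fell, Smarca2 in the ATPase module of SWI/SNF had the smallest adjusted p. Smarca2 was at 22.8, 18.0 and 17.7 FPKM in the OE tumors, at 53.7 and 53.3 FPKM in OE normal lungs and at 64.4 and 71.4 FPKM in the WT lungs. All 3 tumors were far below all 4 normal lungs. The log2 difference was -1.42 (SE 0.14, limma adjusted p = 9.09e-04) against OE normal lungs and -1.75 (SE 0.14, limma adjusted p = 4.44e-04) against WT lung, so that OE normal lung had 2.74 times and WT lung 3.48 times the tumor mean. Smarca4 was at 20.4, 13.5 and 13.1 FPKM in the tumors, against 17.4 and 17.9 FPKM in OE normal lungs and 16.0 and 15.1 FPKM in WT lung. Its groups overlapped, and the log2 differences of -0.19 (95% interval -0.68 to 0.30) and -0.02 (95% interval -0.51 to 0.47) were not called. Within each library the ratio of Smarca4 to Smarca2 was 0.896, 0.747 and 0.743 in the tumors, 0.325 and 0.338 in OE normal lungs and 0.250 and 0.212 in WT lung. Smarca2 was the more abundant of both in every library, and the pair was closer to equal in each tumor than in any normal lung. An exact 2-sided permutation test of the log2 ratio gave p = 0.2 for tumors against either normal group, which is the smallest p that 3 against 2 libraries can give in this test (adjusted p = 0.36 over 27 ratio tests).

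Of the other subunits that dock on the ATPase, Actl6a rose and Bcl7b fell. Actl6a encodes the actin-related subunit used by proliferating cells, and was at 21.7, 36.0 and 33.4 FPKM in the tumors, 16.6 and 15.4 FPKM in OE normal lungs and 15.5 and 13.9 FPKM in WT lung. Its log2 difference was 0.85 (SE 0.22, limma adjusted p = 0.0278) against OE normal lungs and 0.97 (SE 0.22, limma adjusted p = 0.0179) against WT lung. Mrpl47, a mitochondrial ribosomal protein gene whose exons overlap those of Actl6a on the other strand in GENCODE M21, averaged 13.2 ± 2.03, 8.31 ± 0.915 and 8.53 ± 0.282 FPKM in the same groups. The longest exon overlap of the pair is 452 bases. No strand setting is stated, so reads within the overlap cannot be told apart. The neuronal counterpart Actl6b was listed at 0 in the 3 tumors and both WT lungs and at 0.0726 and 0.0233 FPKM in OE normal lungs. Bcl7b, a small subunit of the module, was at 15.6, 14.4 and 13.8 FPKM in the tumors, 22.5 and 22.4 FPKM in OE normal lungs and 24.6 and 24.8 FPKM in WT lung. The log2 differences were -0.59 (SE 0.11, limma adjusted p = 0.00714) and -0.72 (SE 0.11, limma adjusted p = 0.00348). Its paralogs Bcl7a and Bcl7c, and Ss18, were not called in either comparison, with log2 differences between -0.17 and 0.13.

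**Figure D2:**
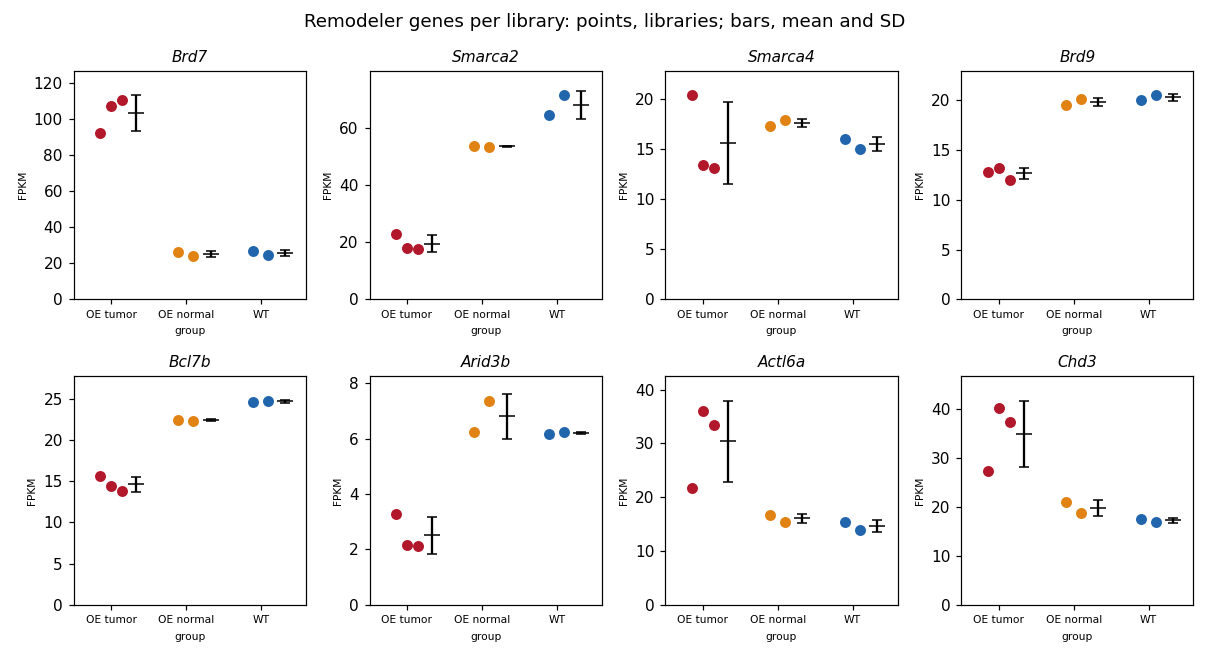
FPKM of 8 members in each library by group (points), with group mean and SD (horizontal and vertical bars, n = 3, 2 and 2). Tumors lie above all normal lungs for Brd7, Actl6a and Chd3, below them for Smarca2, Brd9, Bcl7b and Arid3b, and on both sides of them for Smarca4.

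Of the subunits that set the form of the complex only Brd7 and Brd9 were called, in opposite directions. They are paralogous bromodomain proteins, of PBAF and of non-canonical BAF. Brd7 was at 92.0, 108 and 110 FPKM in the tumors, against 26.3 and 24.2 FPKM in OE normal lungs and 27.1 and 24.8 FPKM in WT lung. This was the highest level of any member in these data, 4.09 times the OE normal mean and 3.99 times the WT mean, with log2 differences of 1.99 (SE 0.13, limma adjusted p = 3.01e-04) and 1.95 (SE 0.13, limma adjusted p = 2.62e-04). No near-identical transcript of another gene was found for Brd7 in GENCODE M21, and none of its exons overlaps another gene there. Brd9 was at 12.8, 13.2 and 12.02 FPKM in the tumors, 19.6 and 20.1 FPKM in OE normal lungs and 20.1 and 20.5 FPKM in WT lung. It fell by 0.61 (SE 0.10, limma adjusted p = 0.00563) and by 0.64 (SE 0.10, limma adjusted p = 0.00491) on the log2 scale. All 3 tumors stood on opposite sides of the normal lungs for these paralogs.

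The other PBAF genes were not called. Arid2, the PBAF-defining ARID subunit, was at 9.77, 6.91 and 7.05 FPKM in the tumors, 9.27 and 8.97 FPKM in OE normal lungs and 9.10 and 9.36 FPKM in WT lung. Pbrm1, the polybromo subunit, was at 12.9, 8.91 and 8.10 FPKM in the tumors, 9.76 and 10.9 FPKM in OE normal lungs and 10.1 and 8.95 FPKM in WT lung. For both, tumor 1 was above and tumors 2 and 3 were below all 4 normal lungs. The 95% intervals of the log2 differences from OE normal lung ran from -0.61 to 0.21 for Arid2 and from -0.56 to 0.43 for Pbrm1. The reader Phf10 was not called either, at 24.2, 17.6 and 16.5 FPKM in the tumors.

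Canonical BAF is defined by ARID1A or ARID1B, of which ARID1A is the SWI/SNF subunit most often mutated in human cancer. Arid1a was at 23.0, 14.5 and 13.1 FPKM in the tumors, against 22.9 and 22.2 FPKM in OE normal lungs and 21.0 and 22.8 FPKM in WT lung. Tumor 1 was level with the normal lungs and tumors 2 and 3 were below all of them. The log2 differences of -0.44 (95% interval -1.01 to 0.14) and -0.40 (95% interval -0.97 to 0.18) were not called. Arid1b was at 7.46, 6.70 and 6.10 FPKM in the tumors, 5.74 and 5.12 FPKM in OE normal lungs and 5.31 and 4.92 FPKM in WT lung, above all normal lungs without a call (limma adjusted p = 0.169 and 0.0970). The ratio of Arid1a to Arid1b was 3.06, 2.15 and 2.13 in the tumors, 3.94 and 4.27 in OE normal lungs and 3.90 and 4.56 in WT lung. The groups of tumors and normal lungs did not overlap, with exact permutation p = 0.2 for both comparisons (adjusted p = 0.36 over the 27 tests). Among the PHD finger readers, Dpf2 was at 21.5 to 22.9 FPKM in the tumors, 24.9 to 25.8 FPKM in OE normal lungs and 26.5 to 26.9 FPKM in WT lung, without a call. Dpf1 and Dpf3, known from nerve and muscle, stayed under 1 FPKM in all libraries. Dpf1 was at 0.123 to 0.145 FPKM in tumors and 0.371 to 0.744 FPKM in the 4 normal lungs, and Dpf3 at 0 to 0.120 FPKM in tumors and 0.194 to 0.443 FPKM in normal lungs.

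**Figure D3:**
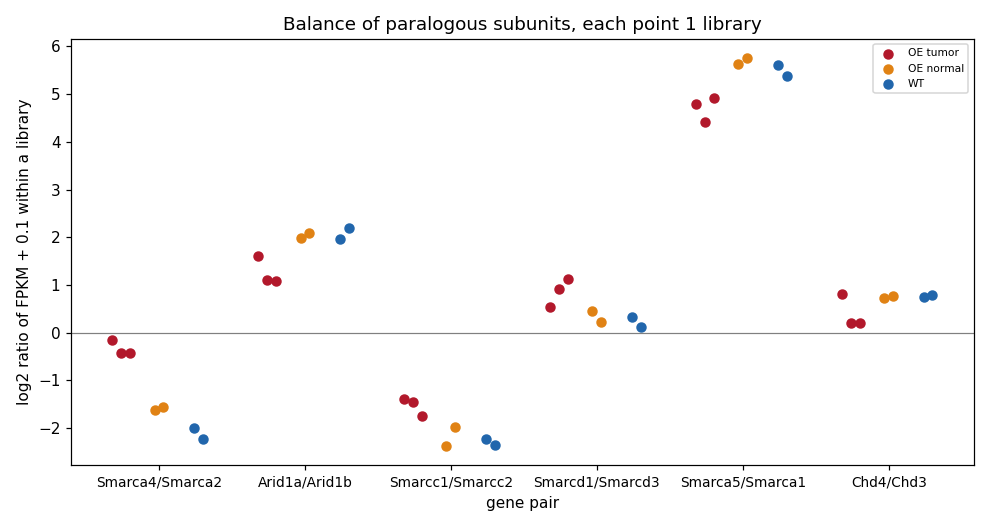
Log2 ratio of 2 paralogous genes within each library, on FPKM + 0.1, for 6 pairs, each point 1 library in order OE tumor, OE normal and WT. Tumors do not overlap the normal lungs for the first 5 pairs, while for Chd4/Chd3 tumor 1 lies above and tumors 2 and 3 below the normal lungs.

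None of the 7 genes of the BAF core was called in either comparison. Smarcb1, a core subunit whose loss defines rhabdoid tumors, was at 32.0, 22.7 and 23.5 FPKM in the tumors, 25.5 and 26.1 FPKM in OE normal lungs and 28.5 and 26.8 FPKM in WT lung, with a 95% interval of -0.41 to 0.40 for the log2 difference from OE normal lung. Smarcc1 was above the normal lungs in all 3 tumors (15.1, 9.71 and 7.71 FPKM against 7.69 FPKM in the highest normal lung), and Smarcd2 and Smarcd3 were below them, at 21.6 to 33.5 FPKM against 35.6 to 38.1 FPKM and at 3.32 to 7.20 FPKM against 7.64 to 9.76 FPKM. Their limma adjusted p-values were 0.0724 or more in both comparisons. Smarcd3 is the variant known from heart muscle. Of 7 heart muscle markers all 7 fell in tumors in both comparisons, and their summed level was 2.82 to 4.68 FPKM in the tumors, 667 to 1608 FPKM in OE normal lungs and 710 to 1248 FPKM in WT lung, with Myl7 at 0 in tumor 2 and Mb at 0 in tumor 1. Their part in the Smarcd3 and Dpf3 values was not tested.

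Tumor 1 differed from tumors 2 and 3 across the core. All 7 core genes were higher in tumor 1 than in both other tumors, as were 16 of the 22 BAF genes tested, against 55.3% of all genes tested. The median excess of tumor 1 over the mean of tumors 2 and 3 was 0.57 on the log2 scale for the core genes, 0.09 for all members and 0.13 for all genes. Smarce1, which binds DNA through an HMG domain, was at 31.2 FPKM in tumor 1 and at 18.2 and 15.4 FPKM in tumors 2 and 3, and Smarcc2 at 39.8 FPKM against 27.0 and 26.0 FPKM. Near-identical pseudogene copies of Smarce1, and of Ss18 and Bcl7c, are annotated, so their levels are uncertain. In the other direction Actl6a, Chd3, Chd6 and Smarca5 were lower in tumor 1, as was Ezh2. With 1 library on one side this is a description without a test. Summed fibroblast and smooth muscle markers were also higher in tumor 1, at 335 and 362 FPKM against 60.5 to 77.5 and 48.7 to 69.4 FPKM in tumors 2 and 3, and their part in the difference was not tested.

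Outside SWI/SNF, 4 members rose and 2 fell against OE normal lung, and after rescaling to TPM none was called higher there and Arid3a, Arid3b, Arid5a, Chd1l, Chd8 and Ino80c were called lower. Of 7 CHD genes tested, Chd3 and Chd4, the ATPases of the histone deacetylase complex NuRD, rose in both comparisons. Chd3 was at 27.2, 40.1 and 37.3 FPKM in the tumors, 20.9 and 18.6 FPKM in OE normal lungs and 17.6 and 16.9 FPKM in WT lung, with log2 differences of 0.77 (SE 0.18, limma adjusted p = 0.0190) and 0.96 (SE 0.18, limma adjusted p = 0.00894). Chd4 was at 47.7, 45.9 and 42.7 FPKM in the tumors, 34.5 and 31.6 FPKM in OE normal lungs and 29.5 and 29.3 FPKM in WT lung, with log2 differences of 0.45 (SE 0.11, limma adjusted p = 0.0197) and 0.61 (SE 0.11, limma adjusted p = 0.00652). Tumors and normal lungs did not overlap for either gene. Chd6, at 10.6, 17.7 and 16.3 FPKM in the tumors, 8.80 and 9.22 FPKM in OE normal lungs and 7.63 and 8.50 FPKM in WT lung, was called against WT lung (0.78, SE 0.22, limma adjusted p = 0.0353) and not against OE normal lung (0.64, SE 0.22, limma adjusted p = 0.0653). Chd1, Chd2, Chd8 and Chd9 were not called, and Chd5, best known from neurons, stayed at 0.105 to 0.592 FPKM.

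Both ISWI ATPases were higher in the tumors than in every normal lung. Smarca5 (SNF2H), which spaces nucleosomes, was at 19.8, 26.1 and 25.2 FPKM in the tumors, 15.0 and 17.0 FPKM in OE normal lungs and 16.1 and 14.6 FPKM in WT lung. The log2 differences were 0.53 (SE 0.15, limma adjusted p = 0.0380) and 0.59 (SE 0.15, limma adjusted p = 0.0278). Its annotated pseudogenes are near-identical to it, so part of its reads could have been placed on copies, and Smarca5-ps was at 1.06 to 1.36 FPKM in tumors and 0.729 to 1.09 FPKM in normal lungs. The X-linked paralog Smarca1 (SNF2L) was far lower, at 0.620, 1.13 and 0.741 FPKM in the tumors, 0.204 and 0.217 FPKM in OE normal lungs and 0.230 and 0.252 FPKM in WT lung, and was below the expression minimum of the test. The ratio of Smarca5 to Smarca1, on FPKM + 0.1, was 27.7, 21.3 and 30.1 in the tumors, 49.8 and 53.9 in OE normal lungs and 49.1 and 41.8 in WT lung (exact permutation p = 0.2 for both comparisons, adjusted p = 0.36). Because Smarca1 was so low, the added 0.1 makes these ratios smaller than those of the FPKM values above, most of all in normal lung.

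Smarcad1, a remodeler that acts behind replication forks and at DNA ends, was at 8.84, 8.85 and 7.91 FPKM in the tumors, 5.71 and 5.86 FPKM in OE normal lungs and 5.43 and 5.14 FPKM in WT lung. It rose by 0.49 (SE 0.12, limma adjusted p = 0.0211) and 0.60 (SE 0.12, limma adjusted p = 0.0106) on the log2 scale. Chd1l and the fork remodeler Smarcal1 were not called. Ino80, the ATPase of the INO80 complex, was at 6.50, 9.24 and 8.22 FPKM in the tumors, 7.83 and 8.004 FPKM in OE normal lungs and 7.24 and 6.91 FPKM in WT lung, with a 95% interval of -0.39 to 0.39 for the log2 difference from OE normal lung. Of the 5 INO80 genes only Ino80b was called, against WT lung, at 16.9, 17.2 and 15.1 FPKM against 12.2 and 12.7 FPKM (log2 difference 0.37, SE 0.11, limma adjusted p = 0.0458). That call was lost without the mean-variance trend, after rescaling to TPM, with only the groups compared, with the replicate block and without any 1 library other than tumor 1, and an antisense gene overlaps an Ino80b exon.

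Among ARID genes outside SWI/SNF, 2 of 6 tested fell and none rose in either comparison. Of all genes tested 24.9% were called lower against OE normal lung and 23.2% against WT lung. Arid3b, a DNA-binding factor linked to stem cell programs, was at 3.28, 2.14 and 2.11 FPKM in the tumors, 6.23 and 7.38 FPKM in OE normal lungs and 6.18 and 6.22 FPKM in WT lung. The log2 differences were -1.16 (SE 0.19, limma adjusted p = 0.00455) and -1.05 (SE 0.19, limma adjusted p = 0.00680). An antisense gene of GENCODE M21 overlaps an Arid3b exon. Arid5a, an RNA-binding protein that stabilizes inflammatory transcripts such as that of interleukin 6, was at 2.51, 0.841 and 1.02 FPKM in the tumors, 4.51 and 7.67 FPKM in OE normal lungs and 4.43 and 4.79 FPKM in WT lung. It differed by -1.55 (SE 0.33, limma adjusted p = 0.0135) and -1.25 (SE 0.33, limma adjusted p = 0.0288). T and NK cell markers fell in 5 of 5 cases against OE normal lungs and 3 of 5 against WT lung, with summed levels of 4.32 to 14.4 FPKM in the tumors, 51.0 to 103 FPKM in OE normal lungs and 24.0 to 35.1 FPKM in WT lung. Their part in the Arid5a values was not tested. Arid3a, Arid4a, Arid4b and Arid5b were not called, and Arid3c stayed at 0 to 0.0378 FPKM.

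**Figure D4:**
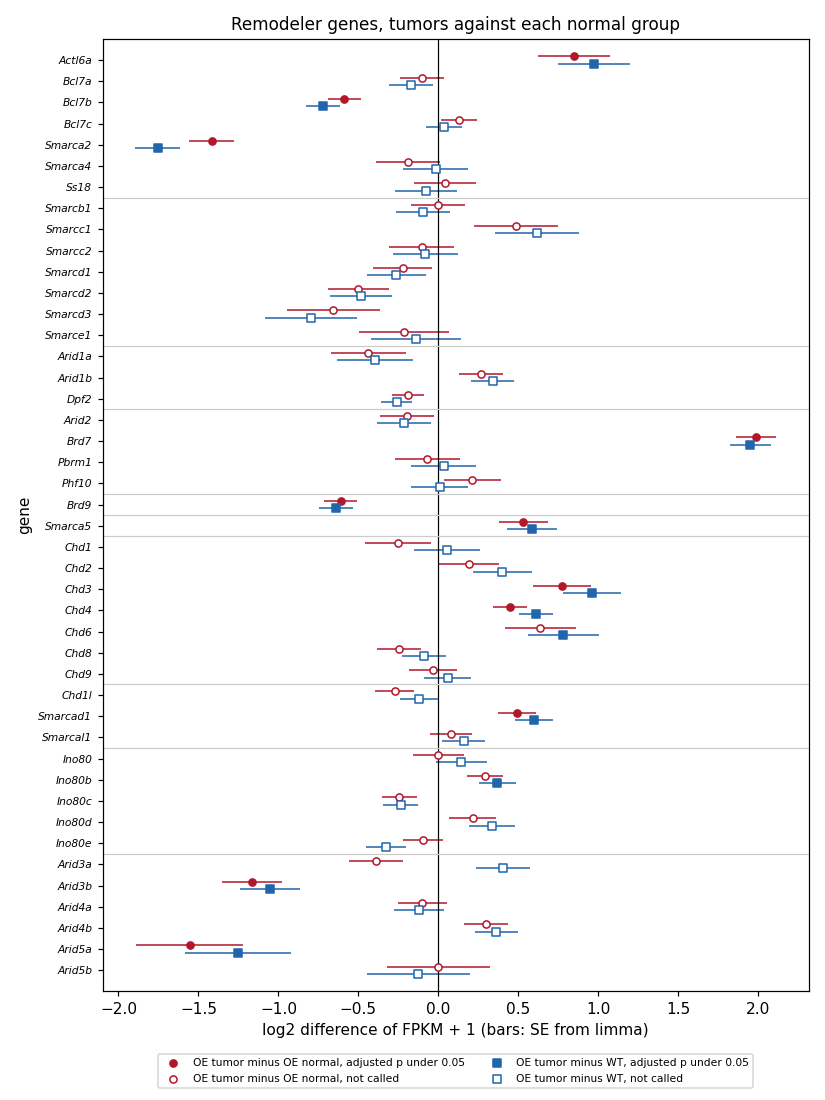
Log2 difference of FPKM + 1 with its SE from limma for the 44 tested members, for OE tumors minus OE normal lung (circles) and OE tumors minus WT lung (squares), where filled symbols have an adjusted p under 0.05. Brd7 lies near 2 and Smarca2 at -1.42 and -1.75, and most BAF core genes lie within 0.5 of zero.

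Markers of several cell types differed between tumors and normal lung, and in bulk RNA fewer cells of a type and less RNA per cell cannot be told apart. All 8 endothelial and all 6 ciliated cell markers fell in both comparisons. The endothelial sum was 73.6 to 95.4 FPKM in the tumors, 1107 to 1223 FPKM in OE normal lungs and 1232 to 1366 FPKM in WT lung, and the ciliated sum 6.75 to 18.3, 316 to 351 and 421 to 467 FPKM, with Dnah5 at 0 in tumor 2. All 6 alveolar type 2 markers rose, with sums of 7673 to 12461 FPKM in the tumors, 1863 to 2824 FPKM in OE normal lungs and 2250 to 3064 FPKM in WT lung. Of 5 macrophage markers 1 rose against OE normal lungs and 2 against WT lung, with sums of 65.3 to 145, 86.6 to 126 and 51.8 to 56.2 FPKM. Of 5 fibroblast markers 2 fell and of 4 smooth muscle markers 3 fell in both comparisons, with fibroblast sums of 60.5 to 335, 413 to 558 and 413 to 537 FPKM and smooth muscle sums of 48.7 to 362, 227 to 238 and 334 to 455 FPKM. Markers of proliferation were called in 0 of 4 cases against OE normal lungs and rose in 2 of 4 against WT lung, with sums of 11.8 to 15.3, 11.5 to 13.9 and 3.60 to 10.3 FPKM. Whether these shifts take part in the falls of Smarca2, Bcl7b, Brd9 and Arid3b or in the rises of Brd7, Actl6a and the CHD and ISWI genes was not tested.

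Scaling and single libraries moved the number of calls, and the strongest members less. Against OE normal lung 1 member was higher and 12 were lower once values were rescaled to TPM, and 12 were higher and 5 lower with quantile normalization. Against WT lung the same rescalings gave 5 higher and 8 lower, and 13 higher and 5 lower. The median over all genes against OE normal lung was -0.11 as deposited, -0.33 after rescaling to TPM and 0.13 with quantile normalization, and that over the members turned from -0.08 as deposited to 0.03 with median-of-ratios scaling and 0.08 with quantile normalization, with -0.31 after rescaling to TPM. Of all genes called, 34.5% were higher in tumors than in OE normal lung as deposited, 18.2% after rescaling to TPM and 56.0% with quantile normalization, and against WT lung 39.4%, 30.8% and 54.7%. With no filter on low values Smarca1 was called higher and Dpf1 and Dpf3 lower in both comparisons. Brd7 and Smarca2 were called in both comparisons under all 16 alternatives, and Arid3b against OE normal lungs and Bcl7b against WT lung as well. Brd7 was the only member called higher against OE normal lung after rescaling to TPM and without tumor 2, OE normal 1 or OE normal 2. Without tumor 3 there were 3 higher, and without WT 1 or WT 2, which enter that comparison through the spread alone, 2. Over all genes the higher calls against OE normal lung fell as well, from 1844 with all libraries to 1039 without tumor 2. They were 1112 without tumor 3, 814 and 730 without OE normal 1 and 2, and 1216 without WT 1 or WT 2. Against WT lung 4 were higher without tumor 2 or tumor 3 and 1 without WT 1 or WT 2, and the lower calls were 3 without WT 1 and 2 without WT 2. Over all genes the higher calls against WT lung were 2115 with all libraries, and 1201 and 1269 without tumor 2 and tumor 3. Without WT 1 and WT 2 they were 795 and 598, with 1939 and 1847 genes lower against 3256 with all libraries. Against OE normal lung, the calls of Actl6a and Smarca5 were lost without any 1 library other than tumor 1. Those of Chd4 and Smarcad1 were lost without tumor 2, either OE normal or either WT library, that of Chd3 without tumor 2, tumor 3 or either OE normal library, and that of Arid5a without OE normal 2. Against WT lung, Actl6a, Smarca5 and Arid5a lost theirs without tumor 2, tumor 3 or either WT library, Chd3, Chd4, Smarcad1 and Arid3b without either WT library, Brd9 without WT 2, and Chd6 without any 1 library other than tumor 1. Adjusted p in limma reached at most 0.194 for Smarca5 among these alternatives. Leaving out tumor 1 gave 10 higher and 15 lower against OE normal lungs and 12 higher and 18 lower against WT lung. The same fit called 3755 of 14057 genes higher and 5865 lower against OE normal lung, and 3991 and 5447 against WT lung. Smarca4, Arid1a, Arid2, Smarcc2, Smarcd1, Smarcd2, Smarcd3 and Smarce1 were then among the lower members in both.

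The comparison of OE normal with WT lung asks how lung labelled normal differs with the overexpression. The overexpression is not all that differs, since Xist was at 63.6 FPKM in OE normal 2 and at 0.131 and 0.346 FPKM in the WT lungs. The part of sex in this comparison was not tested. In limma 0 of 14057 genes were called, Ezh2 included (log2 difference 1.53, SE 0.47, limma adjusted p = 0.406). With 2 against 2 libraries even the overexpressed gene was missed, so the lack of calls does not show that members were unchanged. No member of the 44 passed, with 1208 genes and 1 member at an unadjusted p under 0.05. That member was Arid3a, a B cell and embryonic transcription factor, at 4.13 and 4.28 FPKM in OE normal lungs and 2.43 and 1.62 FPKM in WT lung (log2 difference 0.79, SE 0.18, limma adjusted p = 0.267). B cell markers summed to 116 and 457 FPKM in OE normal lungs and 66.5 and 32.4 FPKM in WT lung, and their part in Arid3a was not tested. Smarca2 was lower in both OE normal lungs than in both WT lungs, at a log2 difference of -0.34 (SE 0.16, limma adjusted p = 0.654). Without tumor 1 in the shared spread limma called 290 genes in this comparison and still 0 members.

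Partners of these complexes that the symbol rule leaves out were taken from a list of 46 genes, of which 45 had values and were tested. In tumors against OE normal lung 6 rose and 4 fell, with a median log2 difference of 0.09, and against WT lung 9 rose and 2 fell, with a median of 0.12, beside the shares of all genes given above. Yeats4, a histone reader shared by the SRCAP and TIP60 complexes, was at 32.2, 34.6 and 34.7 FPKM in the tumors, 18.6 and 18.8 FPKM in OE normal lungs and 18.8 and 18.8 FPKM in WT lung (0.82, SE 0.10, and 0.81, SE 0.10). Trrap, the scaffold of TIP60, averaged 12.6 ± 1.02, 8.12 ± 0.154 and 6.64 ± 0.195 FPKM and was called in both comparisons (limma adjusted p = 0.0126 and 0.00335). Its call against OE normal lung was lost without tumor 2, OE normal 1 or OE normal 2 (limma adjusted p = 0.0519, 0.0800 and 0.0699). The methyl-CpG binding NuRD subunit Mbd2 was at 31.4, 32.0 and 31.6 FPKM in the tumors, 58.0 and 50.8 FPKM in OE normal lungs and 60.5 and 58.1 FPKM in WT lung (-0.76, SE 0.11, and -0.88, SE 0.11, limma adjusted p = 0.00290 and 0.00170). All 3 tumors were below all normal lungs for Mbd2 and above them for Chd3 and Chd4 of the same complex. Of the 11 NuRD partners, Mbd2 was the only 1 called lower, and 9 had a positive log2 difference in each comparison. Rbbp7 was called higher against OE normal lung, and Rbbp7, Mta2 and Mta3 against WT lung.

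Cecr2 and Bcl11a were the other named partners that fell. Cecr2, a bromodomain partner of ISWI, was at 0.322, 0.0133 and 0.0361 FPKM in the tumors, 1.31 and 2.65 FPKM in OE normal lungs and 2.20 and 3.01 FPKM in WT lung (-1.38, SE 0.25, and -1.68, SE 0.25, limma adjusted p = 0.00704 and 0.00350). With quantile normalization its difference from OE normal lung was -0.76 and was not called (limma adjusted p = 0.0565). Bcl11a, a BAF-associated zinc finger protein of B cells and neurons, was at 0.217, 0.0568 and 0.0965 FPKM in the tumors, 1.70 and 3.16 FPKM in OE normal lungs and 0.998 and 0.482 FPKM in WT lung. Bcl11a fell against OE normal lung (-1.58, SE 0.23, limma adjusted p = 0.00347) and was not called against WT lung (limma adjusted p = 0.0825). The B cell marker sum was 5.13 to 17.5 FPKM in the tumors, with 4 of 4 markers lower than in OE normal lungs and 3 of 4 lower than in WT lung, beside the normal sums given above, and its part in Bcl11a was not tested.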

How the data were processed

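FPKM values per gene had been made by the authors on mm9, and the submitters' processing notes name TopHat2, TopHat and Cufflinks 2.0.0. The annotation, strand setting and normalization option are not stated there, so depth in reads is known only relative to other libraries. Each file held 22474 rows, of which 27 carried a date in place of a symbol and were left out. Members, lists and tests were chosen with earlier results of these data known. limma 3.58.1 in R 4.3.3 was fitted to log2(FPKM + 1) of genes that reached 1 FPKM in 2 or more of 7 libraries (eBayes with a trend, 2-sided, no block, 3 groups sharing 1 spread) and tested on simulated data. Values were given by library for up to 12 called members per comparison by smallest adjusted p, for 12 fixed ATPases and defining subunits, and for 2 partners per direction and comparison. Ino80b and Arid3a lie outside that rule and were named after their values were seen, as were the members given without a call. Paralog ratios used FPKM + 0.1 and exact permutation tests (scipy 1.17.1). Near copies were sought in GENCODE M21 with minimap2 2.31, and start regions came from RefSeq. The alternatives changed the pseudocount (0.1), the filter (none or 5 FPKM), the scaling (median of ratios, TPM or quantile), the trend and the libraries fitted, or added a replicate block. Figures were drawn with matplotlib 3.10.9.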

Additional observations from a re-analysis of the deposited data

How the results depend on the processing

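Counts of calls depended on scaling, on the block and on the libraries kept, while the directions of the 11 members called against OE normal lung held under all 16 alternatives, or for Arid5a under the 15 that gave it a value (it is below the filter at 5 FPKM). Members called higher and lower in tumors against OE normal lung were 1 and 12 after rescaling to TPM, 12 higher with quantile normalization and 2 higher with only the groups compared. Over all 14057 genes the last of these fits called 1215 higher. Rescaling to TPM called 1085 of all genes higher and 4883 lower against OE normal lung, and quantile normalization 3390 and 2666. Against WT lung these all-gene counts were 1658 and 3724 with TPM, and 3212 and 2662 with quantile normalization. Against WT lung the members called were 5 and 8 after rescaling to TPM, 13 higher with quantile normalization and 8 lower with no filter, where 3659 of 19404 genes were lower. Partners called higher and lower against OE normal lung were 2 and 12 after rescaling to TPM, 12 and 2 with quantile normalization, 2 higher with only the groups compared and 2 lower with a filter at 5 FPKM. Against WT lung 6 partners were lower after rescaling to TPM and 1 with a filter at 5 FPKM. With that filter 2386 of 10575 genes were lower against OE normal lung and 2310 against WT lung. Deviations of same-numbered libraries from their group means correlated at -0.03 to 0.03. In a group of 2 libraries the deviations mirror each other, so this check cannot decide whether the numbers pair samples. With the replicate block limma called 3130 genes against OE normal lungs and 2999 against WT lung, with 1 and 2 members higher and 2 and 2 lower, and 1 and 3 partners higher. Only the tumors have a replicate 3, so in the block fit tumor 3 has a term of its own. The median differences over all genes, -0.071 and -0.031, were those of the fit without tumor 3. Between OE normal and WT lung 1 gene was called with the block, 1 with a pseudocount of 0.1, 2 with no filter and 3 with only the groups compared. Over the 7 fits without 1 library each, genes called ranged from 2996 to 9620 against OE normal lung, 2445 to 9438 against WT lung and 0 to 290 between the normal groups. Members higher ranged from 1 to 10 and 1 to 12, members lower from 4 to 15 and 2 to 18, partners higher from 1 to 16 and 2 to 15, and partners lower from 3 to 13 and 2 to 9 in the first 2 comparisons, with 0 of each between the normal groups. Sign changes were recorded only for named genes that were called or whose main difference was larger than its SE. By that rule the sign turned for Arid2 against OE normal lung with quantile normalization (0.021). Between OE normal and WT lung it turned for Mbd2 after rescaling to TPM (0.0053) and for Cecr2 without OE normal 1 (0.029). The lowest Cecr2 value there with 1 library left out was -0.63. None of these were called, and sign changes of smaller differences are not listed. The calls against OE normal lung that were lost most often were those of Actl6a and Smarca5 (held in 7 of 16 alternatives) and of Chd4 and Smarcad1 (held in 8), followed by Chd3 (held in 10). With few libraries per group the cause of these changes was not tested.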
